A study of Mus musculus with 5 samples.

Results

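The 47 genes described here encode the subunits of the receptors for GABA and glutamate, the main inhibitory and excitatory transmitters of the forebrain. They were chosen by their symbols, from 34590 gene symbols counted in each library, as 19 GABA-A subunits (Gabr genes), 2 GABA-B subunits (Gabbr), 4 AMPA (Gria), 7 NMDA (Grin), 5 kainate (Grik) and 2 delta (Grid) subunits and 8 metabotropic glutamate receptors (Grm). RNA was sequenced from medial cortex (3 libraries) and lateral cortex (2 libraries) dissected from brains of wild-type, untreated mouse embryos of mixed strain background at stage E14.5, in mid neurogenesis. The design contrasts these 2 regions. The labels do not state that each library is a different embryo. Every p-value below is therefore a statement on the scatter of these 5 libraries, and that scatter may be technical.

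GABA-A receptors are chloride channels built of 5 subunits, usually alpha, beta and gamma subunits, and the alpha subunit largely sets their response to GABA and to drugs. GABA-B receptors are G-protein coupled dimers of Gabbr1 and Gabbr2. AMPA, NMDA and kainate receptors are cation channels of 4 subunits gated by glutamate, and the metabotropic receptors act through G proteins. In embryonic cortex GABA and glutamate reach progenitors and migrating neurons before most synapses form, and GABA is then usually depolarizing.

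Gene counts came to between 27406370 and 36460274 reads in the medial and between 56147129 and 66981952 reads in the lateral libraries, and 3 reads correspond to between 0.0456 and 0.105 counts scaled to a library of 1e6 reads (CPM). The cortical factor Emx1 was at 68.4 to 116 CPM in the 5 libraries. Of 9 pan-neuronal genes counted, 6 were lower in medial cortex, and their summed level was 1299 to 1958 CPM in medial and 2597.5 to 3273 CPM in lateral libraries. Of 10 GABAergic neuron genes 7 were lower (summed 2.90 to 18.4 against 71.3 to 102 CPM). All 8 Cajal-Retzius genes were higher (summed 584 to 678 against 180 to 222 CPM), as were 2 of 10 genes of radial glia and dividing cells (summed 4764 to 5925 against 3132 to 3641 CPM) and 2 of 4 tested thalamus genes (summed 86.5 to 154 against 13.1 to 23.2 CPM, with Gbx2 at 0 in at least 1 library). Medial library 1 stood apart in meningeal genes (290 CPM, against 10.7 to 17.9 in the other 4 libraries), oligodendrocyte precursor genes (37.0 against 6.26 to 12.2 CPM, with Sox10 at 0 in at least 1 library) and microglial genes (43.3 against 16.8 to 24.0 CPM). The part that these cell types play in the results below was not tested.

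**Figure D1:**
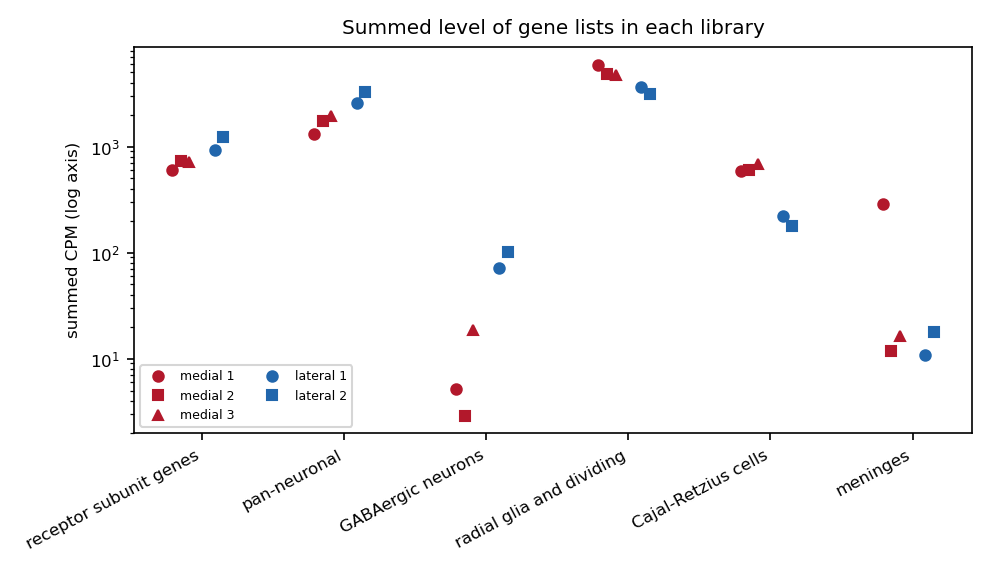
Summed level (CPM, log axis) of the 47 receptor subunit genes and of 5 marker lists, with 1 point per library (red medial, blue lateral). The receptor genes together were at 606 to 729 CPM in the medial and 933 to 1239 CPM in the lateral libraries, and pan-neuronal genes were lower and Cajal-Retzius genes higher in each of the medial libraries than in either of the lateral ones.

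Receptor subunit genes differed in both directions between the regions. Of the 41 that passed the low-count filter, 5 were higher in medial cortex (among them Gabra4, Gabrb1, Gabra2 and Grik2) and 8 were lower (among them Grik3, Gabrb2, Gria1, Gria3, Gabbr1 and Gria4), at an adjusted p under 0.05 in edgeR's quasi-likelihood test. Over all 16229 genes tested, 9.72% were called, 4.62% higher and 5.10% lower. The median log2 fold change, medial over lateral, was −0.64 over the 41 subunit genes and 0.01 over all genes tested. The groups did not overlap in 11 subunit genes that were higher and 20 that were lower in medial cortex, while over all genes 53.3% did not overlap, 26.5% higher and 26.7% lower. Of the 41, 36 passed the filter by their reads in either region, and Gabrg1, Gabrr2, Grin2a, Grin2c and Grm8 passed through the medial libraries alone.

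Since these are bulk samples, fewer cells of a type and less RNA per cell cannot be told apart. The calls rested on few libraries: edgeR called 0 of the 13 genes without medial library 2, lateral library 1 or lateral library 2, and 5 without medial library 3, whereas all 13 were called without medial library 1, in a fit that called 13.2% of all genes (6.26% higher and 6.94% lower). Over all genes the 3 fits without medial library 2, lateral library 1 or lateral library 2 called 0, 18 and 0, and the fit without medial library 3 called 3.01%. At an unadjusted p under 0.05, 9 subunit genes of 41 were higher and 16 lower without medial library 2, beside 12.4% and 12.1% of all genes. Without lateral library 1, 7 of 40 were higher and 18 lower, beside 11.4% and 13.0%. Without lateral library 2, 10 of 40 were higher and 11 lower, beside 7.22% and 7.62%. With all 5 libraries DESeq2 called 8 subunit genes higher and 14 lower, all 13 of edgeR's among them, while calling 21.7% of all genes (10.7% higher and 11.0% lower). Applied to the same subsets after the results were seen, DESeq2 called all 13 without medial library 1, 2 or 3. Over all genes these fits called 3041 of 15438, 2006 of 15856 and 3108 of 15643 genes tested. Without lateral library 2, which leaves 1 lateral library, fewer of the 13 were called.

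**Figure D2:**
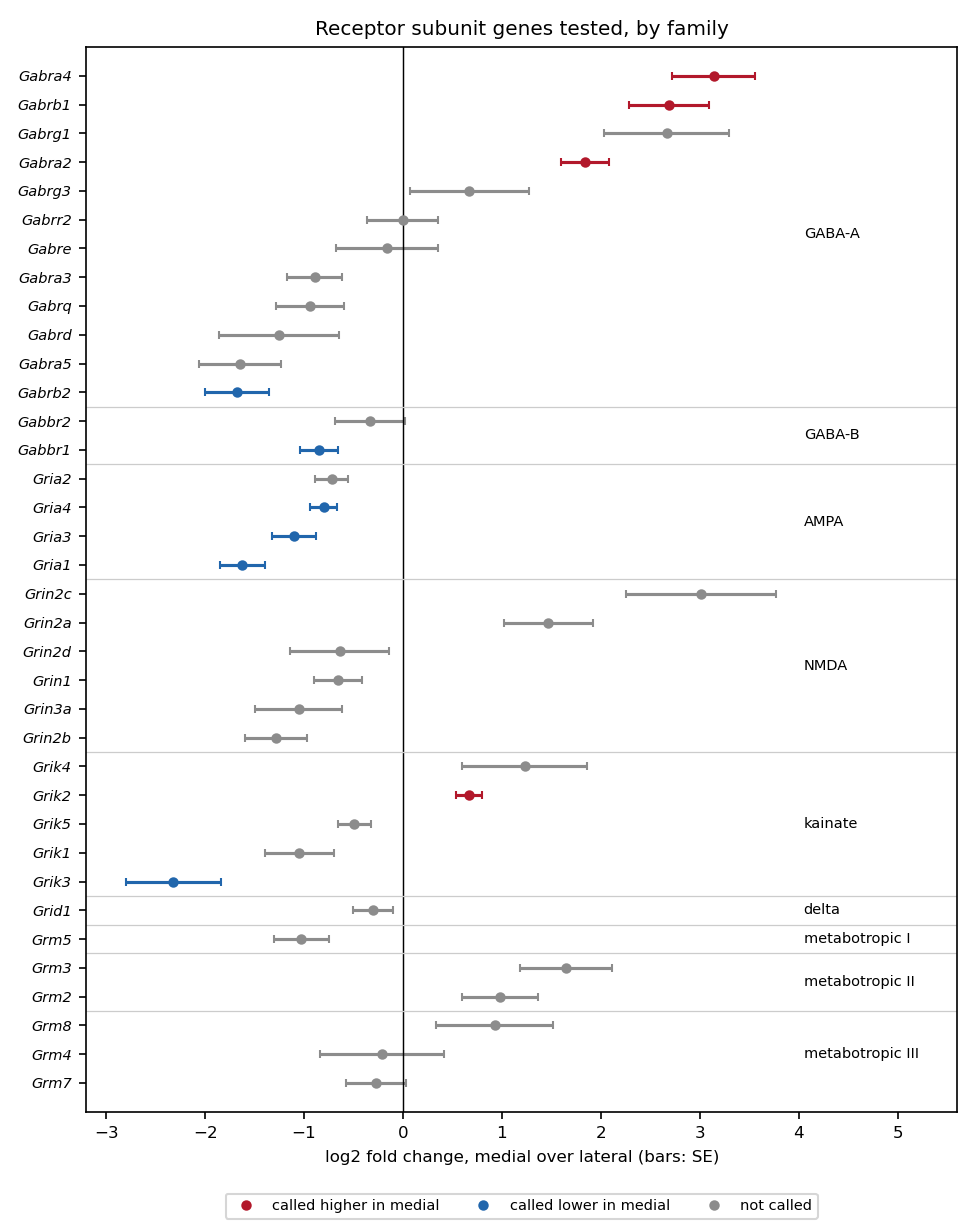
Log2 fold change (medial over lateral, bars show the SE) of 36 of the 41 tested subunit genes by receptor family, with 3 medial and 2 lateral libraries (red called higher in medial, blue called lower, grey not called at an adjusted p of 0.05). Values ran from −2.32 (Grik3) to 3.14 (Gabra4), and the 4 AMPA subunits all lay below 0.

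GABA-A subunit genes lie in clusters in the mouse genome, and genes of 1 cluster, Gabrg1, Gabra2, Gabra4 and Gabrb1, stood above the lateral libraries in each of the medial ones. In the RefSeq annotation of GRCm38.p6 these 4 genes are neighbours with 1 other protein-coding gene, Cox7b2, between them. Gabra4, an alpha subunit known from extrasynaptic receptors of thalamus and hippocampus, had 41.2, 30.2 and 20.6 CPM in medial libraries 1 to 3 and 4.58 and 2.30 CPM in lateral libraries 1 and 2. Its log2 fold change was 3.14 (SE 0.42, edgeR adjusted p = 0.0296), and it lay between 2.74 (without lateral library 2) and 3.73 (without lateral library 1) when 1 library was left out. Gabra2, an alpha subunit typical of embryonic forebrain, had 34.4, 30.0 and 20.3 CPM against 7.69 and 8.06 CPM (log2 fold change 1.84, SE 0.24, edgeR adjusted p = 0.0296). Gabrb1, a beta subunit, had 5.83, 4.16 and 3.12 CPM against 0.852 and 0.464 CPM (2.69, SE 0.40, edgeR adjusted p = 0.0305). The gamma subunit Gabrg1 had 2.26, 0.909 and 0.779 CPM against 0.198 and 0.204 CPM and did not pass (2.67, SE 0.63, edgeR adjusted p = 0.0521). In all 4 genes medial library 1 was the highest and medial library 3 the lowest of the medial libraries. Without medial library 1 the 3 called genes kept their calls, and Gabrg1 passed with a smaller log2 fold change of 2.05. Gabrg1 also passed with DESeq2, with edgeR's older form and with a block by the tag in the deposited file names. After thinning of the reads to the smallest library Gabrg1 was at 3.52. In the same libraries the thalamus list was at 154, 117 and 86.5 against 23.2 and 13.1 CPM, and the list of radial glia and dividing cells at 5925, 4865 and 4764 against 3641 and 3132 CPM. Most of the thalamus sum came from Lhx9 and Prox1, and the other 2 tested genes of that list were not called. The part of either list in the result was not tested.

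The start regions of these 4 neighbours are shown because 3 of them, Gabra2, Gabra4 and Gabrb1, were called higher in medial cortex. Gabrg1 was not called and entered the test through its medial reads alone. Each sequence runs 5′ to 3′ from 250 bases before to 50 after the annotated start (RefSeq, GRCm38.p6), and capitals mark CpG dinucleotides.
Gabra2, chr5:71095800-71096099, minus strand: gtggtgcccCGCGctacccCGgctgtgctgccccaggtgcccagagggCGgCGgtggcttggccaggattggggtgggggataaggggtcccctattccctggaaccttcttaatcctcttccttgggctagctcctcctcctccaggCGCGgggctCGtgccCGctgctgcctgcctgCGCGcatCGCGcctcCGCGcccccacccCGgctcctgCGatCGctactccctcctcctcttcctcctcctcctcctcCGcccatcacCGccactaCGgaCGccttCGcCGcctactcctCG
Gabra4, chr5:71658259-71658558, minus strand: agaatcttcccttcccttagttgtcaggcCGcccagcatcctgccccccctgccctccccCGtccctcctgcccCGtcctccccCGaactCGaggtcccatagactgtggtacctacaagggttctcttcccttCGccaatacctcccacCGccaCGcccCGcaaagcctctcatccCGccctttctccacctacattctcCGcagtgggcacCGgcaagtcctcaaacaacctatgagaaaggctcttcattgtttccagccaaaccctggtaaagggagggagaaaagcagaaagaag
Gabrb1, chr5:71657671-71657970, plus strand: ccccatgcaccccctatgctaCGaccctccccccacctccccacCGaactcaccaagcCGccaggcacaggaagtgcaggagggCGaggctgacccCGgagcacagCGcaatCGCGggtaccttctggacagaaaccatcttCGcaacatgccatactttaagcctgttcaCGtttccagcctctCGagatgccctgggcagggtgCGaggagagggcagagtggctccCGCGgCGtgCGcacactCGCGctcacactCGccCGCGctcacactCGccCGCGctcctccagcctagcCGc
Gabrg1, chr5:70842568-70842867, minus strand: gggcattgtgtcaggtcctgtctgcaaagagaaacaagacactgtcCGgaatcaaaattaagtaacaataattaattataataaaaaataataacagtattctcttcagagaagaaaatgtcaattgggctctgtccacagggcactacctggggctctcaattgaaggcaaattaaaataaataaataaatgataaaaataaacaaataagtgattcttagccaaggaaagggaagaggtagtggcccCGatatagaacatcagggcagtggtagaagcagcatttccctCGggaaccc

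The windows hold 25 CpGs in Gabra2, 12 in Gabra4, 25 in Gabrb1 and 3 in Gabrg1, beside a median of 7 over the 32851 windows of the table. Gabra4 and Gabrb1 are read on opposite strands and their windows lie 288 bases apart. Their exons overlap by 46 bases in GENCODE M21 (0.756% of the Gabra4 and 0.332% of the Gabrb1 exon length), where unstranded reads cannot be told apart. Gabrb1 has another annotated start, with 9 CpGs in its window. A search on both strands covered CTTTGA, the core bound by Tcf/Lef factors, CAGATG, an E-box of neurogenic bHLH factors, and TAATTA, a homeodomain core. These letters occur in 16.0%, 17.2% and 5.29% of all windows of the table. In this cluster, TAATTA was found in the Gabrg1 window, in 2 copies that overlap, and no other match was found in its 5 windows. A match or its lack describes these letters in this window only.

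The difference went the other way for a gene of another cluster. The beta subunit Gabrb2, common in adult brain, had 8.02, 9.93 and 11.6 CPM in medial and 20.7 and 42.6 CPM in lateral libraries (log2 fold change −1.68, SE 0.32, edgeR adjusted p = 0.0379). Each medial library lay below both lateral ones. Lateral library 2 carried part of this difference, which was −1.07 without it. Gabra6, an alpha subunit of cerebellar granule cells, had 0 medial and 6 lateral reads, all in lateral library 2, and was not tested.

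The alpha subunit Gabra5, found in extrasynaptic receptors of hippocampus and cortex, had 1.08, 1.54 and 2.56 CPM in medial and 3.89 and 7.19 CPM in lateral libraries. The regions did not overlap, but the gene did not pass (log2 fold change −1.64, SE 0.42, edgeR adjusted p = 0.0574). Its neighbour Gabrg3 overlapped between the regions, with 2.43 CPM in medial library 1 and 0.608 to 1.04 CPM elsewhere. In the cluster of Gabre, Gabra3 and Gabrq, the alpha subunit Gabra3 had 4.2, 3.92 and 5.56 CPM against 6.37 and 10.7 CPM (−0.89, SE 0.28, edgeR adjusted p = 0.0909). Gabrq, with 0.334 to 0.629 CPM in medial and 0.761 and 0.882 CPM in lateral libraries, did not pass either, and Gabre overlapped at 0.833 to 2.20 against 0.966 and 2.45 CPM.

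**Figure D3:**
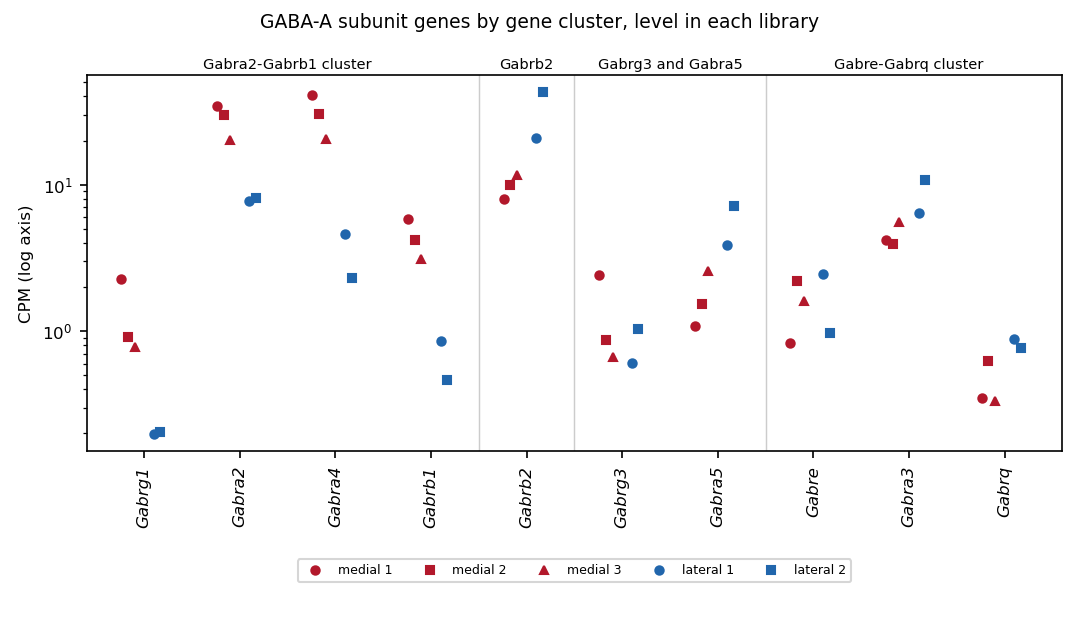
Level (CPM, log axis) of 10 tested GABA-A subunit genes in each library, grouped by gene cluster (red medial, blue lateral, symbols show the library number). In the cluster of Gabrg1, Gabra2, Gabra4 and Gabrb1 each medial point lies above both lateral points, and for Gabrb2, Gabra5, Gabra3 and Gabrq each medial point lies below them.

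The remaining GABA-A subunits were near the limit of detection. The delta subunit Gabrd, a partner of Gabra4 in tonic inhibition, had 0.139, 0.455 and 0.918 CPM in medial and 0.867 and 1.71 CPM in lateral libraries and did not pass (log2 fold change −1.25, SE 0.60, edgeR adjusted p = 0.211, −2.09 without medial library 3 and −0.71 without lateral library 2). Of the rho subunits, known from the retina, Gabrr2 had 25 medial and 32 lateral reads and a log2 fold change near 0 (edgeR adjusted p = 0.995). Gabrr1 had 3 and 2 reads, Gabrr3 0 and 4, and Gabrp 4 and 4, and these 3 were not tested.

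The make-up of the alpha subunits differed between the regions. Reads were scaled to exon length in GENCODE M21 so that genes could be compared, and each alpha subunit was expressed as a share of the 6. Gabra4 made up 57.0%, 51.9% and 45.8% of the set in medial libraries 1 to 3 and 20.0% and 7.32% in lateral libraries 1 and 2. Gabra2 made up 32.2% to 36.8% in medial and 18.3% and 24.0% in lateral libraries. In lateral cortex Gabra3 led with 30.1% and 37.0%, against 6.29% to 13.4% in medial cortex. Gabra5 made up 23.9% and 32.1% in lateral and 2.10% to 7.98% in medial cortex. None of these 4 shares overlapped between the regions. Shares of 1 set are tied to each other, and the counting annotation of the files is not given in the sources used here, so lengths are approximate. With all annotated transcripts in place of the basic set, Gabra4 made up 40.5% to 53.0% in medial and 5.52% and 15.8% in lateral libraries.

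**Figure D4:**
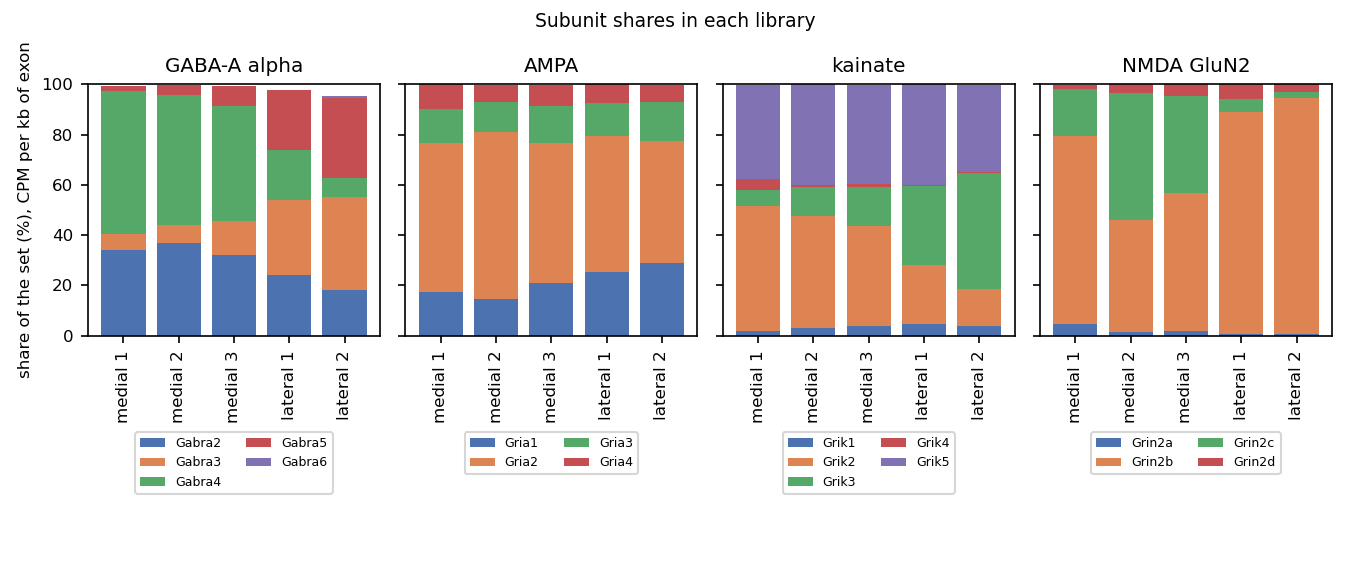
Share (%) of each subunit in its set, from CPM per kilobase of exon, in each of the 5 libraries for GABA-A alpha, AMPA, kainate and the Grin2 subunits of NMDA receptors, drawn without genes not reported here. Gabra4 and Gabra2 fill most of the alpha bar in medial libraries, and Gabra3 and Gabra5 most of it in lateral ones.

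For GABA-B receptors, the ligand-binding subunit Gabbr1 had 91.8, 124 and 139 CPM in medial and 190 and 236 CPM in lateral libraries (log2 fold change −0.85, SE 0.19, edgeR adjusted p = 0.0470). Its partner Gabbr2, which couples to G proteins, overlapped, with 5.42 to 7.04 CPM against 4.93 and 11.1 CPM (−0.33, SE 0.36, edgeR adjusted p = 0.563). Per kilobase of exon, Gabbr1 had the highest level of the 47 genes in both regions, at a mean of 17.9 CPM per kilobase in medial and 32.3 in lateral libraries, while Gabbr2 had 1.10 and 1.39.

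The 4 AMPA receptor subunits were lower in each medial library than in either lateral one, and 3 of them passed. Over all genes tested 26.7% were lower without overlap and 5.10% were called lower. The 9 pan-neuronal genes were all lower without overlap too, and 6 of them were called. Gria1 had 19.6, 21.8 and 29.5 CPM in medial and 58.3 and 87.4 CPM in lateral libraries (log2 fold change −1.62, SE 0.23, edgeR adjusted p = 0.0296). Gria3 had 14.2, 16.7 and 19.5 CPM against 28.4 and 44.1 CPM (−1.10, SE 0.22, edgeR adjusted p = 0.0402). Gria4 had 12.3, 11.1 and 12.7 CPM against 18.9 and 23.1 CPM (−0.80, SE 0.14, edgeR adjusted p = 0.0335). Gria2, whose RNA is edited so that the channel keeps out calcium, was the most abundant of the set per kilobase. It had 124, 179 and 141 CPM against 225 and 263 CPM and did not pass in edgeR (−0.72, SE 0.17, adjusted p = 0.0502). With DESeq2, limma-voom, a filter at 1 CPM in 2 libraries, the block by file-name tag or without medial library 1 it did. Gria1 made up 14.7% to 21.1% of the AMPA set in medial and 25.3% and 29.1% in lateral libraries, and Gria2 55.7% to 66.5% against 48.2% and 54.0%.

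Among kainate receptor subunits the 2 calls went in opposite directions. Grik3 had 10.9, 25.1 and 34.5 CPM in medial and 82.2 and 153 CPM in lateral libraries, without overlap (log2 fold change −2.32, SE 0.48, edgeR adjusted p = 0.0430). The GABAergic neuron list moved in the same direction, at 5.17, 2.90 and 18.4 against 71.3 and 102 CPM. So did the pan-neuronal list, at 1299, 1729 and 1958 against 2597.5 and 3273 CPM. The summed list of the cortical glutamatergic lineage was at 1357, 1774 and 2064 against 2661 and 2873 CPM, though 5 of its 10 genes had a positive log2 fold change. The part of any of these lists in the Grik3 result was not tested. Grik2 had 94.4, 112 and 101 CPM against 71.9 and 57.0 CPM (0.67, SE 0.13, edgeR adjusted p = 0.0393). Grik5, a subunit that forms channels only together with others, had 26.0, 36.7 and 36.5 CPM against 44.4 and 48.6 CPM and did not pass (−0.49, SE 0.17, edgeR adjusted p = 0.106). Grik1, with 1.46, 3.25 and 3.78 CPM against 5.76 and 6.09 CPM, did not pass either (−1.05, SE 0.35, edgeR adjusted p = 0.101). Grik4, another obligate partner, had 4.58 CPM in medial library 1 and 0.806 to 1.36 CPM elsewhere. By CPM per kilobase, Grik3 made up 6.62% to 15.8% of the kainate set in medial cortex against 31.2% and 46.0% in lateral cortex. Grik2 made up 39.8% to 49.6% against 23.6% and 14.8%. Among the 47 genes Grik3 ranked 11 by mean level per kilobase in medial and 3 in lateral cortex, and Gabra4 ranked 5 and 20.

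**Figure D5:**
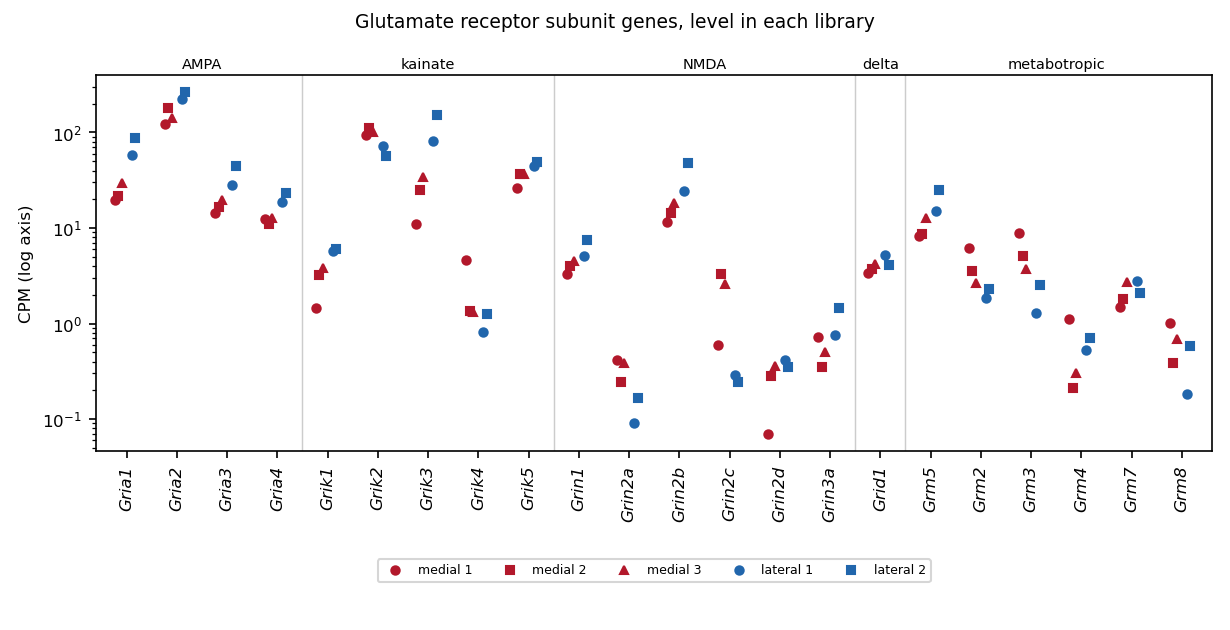
Level (CPM, log axis) of 22 of the 24 tested glutamate receptor genes in each library, grouped by family (red medial, blue lateral, symbols show the library number). The AMPA subunits and Grik3 are lower in each medial library than in either lateral one, and Grik2, Grm2 and Grm3 are higher.

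No NMDA receptor subunit passed in edgeR, and 2 of the 6 tested did with DESeq2, which called 21.7% of all genes. The obligate subunit Grin1 had 3.33, 3.99 and 4.56 CPM in medial and 5.09 and 7.50 CPM in lateral libraries (log2 fold change −0.66, SE 0.24, edgeR adjusted p = 0.125). In GENCODE M21 13.5% of its exon length overlaps an antisense gene, Grin1os, whose reads cannot be told apart without strand. Grin2b, the partner subunit typical of embryonic brain, had 11.5, 14.4 and 18.1 CPM against 24.5 and 47.5 CPM (−1.29, SE 0.31, edgeR adjusted p = 0.0545). Grin2c, best known from cerebellar granule cells and astrocytes, had 0.590, 3.32 and 2.59 CPM against 0.289 and 0.241 CPM (3.02, SE 0.76, edgeR adjusted p = 0.0572). In Grin2c it was medial library 1 that stood low, with 17 reads against 95 and 93 in the other medial libraries, and without it the gene passed. Grin2a, the subunit of mature synapses, had 33 medial and 15 lateral reads, Grin2d 23 and 46, and Grin3a 49 and 129. Grin3b, with 15 and 7 reads, was not tested, and 32.1% of its exon length overlaps Tmem259. Unadjusted p-values under 0.05 were reached by 4 of the 6 tested, Grin1, Grin2a, Grin2b and Grin2c, beside 32.2% of all genes, and Grin2a and Grin2c had entered the test through their medial reads alone.

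Of the delta receptors, which bind cerebellins and not glutamate at synapses, Grid1 overlapped at 3.37 to 4.17 against 4.09 and 5.20 CPM (log2 fold change −0.30, SE 0.20, edgeR adjusted p = 0.341).

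Metabotropic glutamate receptors did not pass in edgeR, with 4 of 7 tested genes at an unadjusted p under 0.05, beside 32.2% of all genes. DESeq2 called 3 of the 7, beside 21.7% of all genes. Grm5, a group I receptor, which raises calcium through phospholipase C, had 8.15, 8.74 and 12.7 CPM against 15.2 and 25.1 CPM (log2 fold change −1.03, SE 0.28, edgeR adjusted p = 0.0667). Its medial libraries all lay below the lateral ones. Group II receptors, which lower cyclic AMP, were above the lateral libraries in each medial one. Grm3 had 8.81, 5.14 and 3.76 CPM against 1.28 and 2.51 CPM (1.65, SE 0.47, edgeR adjusted p = 0.0717), and Grm2 6.11, 3.57 and 2.64 CPM against 1.84 and 2.28 CPM (0.98, SE 0.38, edgeR adjusted p = 0.141). In GENCODE M21 9.60% of the Grm2 exon length overlaps another gene. Of group III receptors Grm7 (1.49 to 2.70 against 2.10 and 2.80 CPM), Grm8 (0.385 to 1.0 against 0.182 and 0.576 CPM) and Grm4 (0.210 to 1.11 against 0.532 and 0.706 CPM) overlapped. Grm6, the receptor of retinal bipolar cells, had 6 medial and 7 lateral reads and was not tested.

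The subunit genes were also set against the summed CPM of the 9 pan-neuronal genes in the same library. All 47 together came to 46.6%, 42.1% and 36.5% of that sum of medial libraries 1 to 3, against 35.9% and 37.9% for lateral libraries 1 and 2, so the regions overlapped on this scale. Of the 20 genes that were lower without overlap in CPM, 7 were also lower per pan-neuronal read, among them Grik3, Gria1, Gabrb2, Gabra5, Grin2b and Gabbr1. Grik3 came to 0.839%, 1.45% and 1.76% of the pan-neuronal sum in medial and 3.16% and 4.69% in lateral libraries, and Gria1 to 1.51%, 1.26% and 1.5% against 2.25% and 2.67%. For Gabbr1 (7.07%, 7.19% and 7.08% against 7.31% and 7.21%) the gap was narrow. Gria2 overlapped, at 9.53%, 10.4% and 7.2% against 8.67% and 8.02%, as did Gria3 and Gria4. On this scale 3.14% of all genes tested were lower and 80.4% higher in medial cortex without overlap, because the pan-neuronal sum itself was lower there, and 17 subunit genes were higher. A gene that is higher without overlap in CPM must be higher on this scale too. This held for 11 of the 17, so their count adds nothing to the CPM values. The rest overlapped in CPM or, as Grik5 and Grin1, were lower there. Grik5 came to 2.00%, 2.12% and 1.87% of the pan-neuronal sum in medial and 1.71% and 1.49% in lateral libraries. Gabra4 came to 3.17%, 1.75% and 1.05% against 0.176% and 0.0704%, and Grik2 to 7.27%, 6.48% and 5.14% against 2.77% and 1.74%.

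Further gene lists around these receptors were counted but not tested as sets. In 5 of them the calls toward lateral cortex outnumbered those toward medial cortex. The lists of glycine receptors and adenosine deaminases held no called gene. Over all genes tested, 4.62% were called higher and 5.10% lower in medial cortex. Of 14 auxiliary subunits of glutamate receptors 3 passed, each lower in medial cortex: Neto1 (log2 fold change −2.62, SE 0.37) and Neto2 (−0.61, SE 0.12), which modify kainate receptors, and the AMPA receptor subunit Cacng3 (−3.24, SE 0.54, 8 medial and 99 lateral reads). The list's median was −0.60. Of 18 scaffold proteins of excitatory synapses 3 were lower, the AMPA receptor binding proteins Grip2 (−2.47) and Grip1 (−0.66) and the scaffold Shank2 (−1.24), and Homer2, which binds group I metabotropic receptors, was higher (0.91, SE 0.11), with a median of −0.37. In the list of inhibitory scaffolds and GABA-B auxiliary subunits 3 of 12 tested passed, each lower, with a median of −0.45. These were Kctd8 (−2.44) and Kctd12 (−0.67), which bind GABA-B receptors, and Gabarapl2 (−0.38), named for its likeness to a GABA-A receptor binding protein.

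For synthesis and transport of the transmitters 4 of 15 tested genes were lower and 2 higher, with a median of −0.15. The GABA-synthesizing enzymes Gad1 (0.280 to 1.67 CPM in medial, 8.86 and 11.6 CPM in lateral libraries) and Gad2 (0.350 to 2.03 against 9.0 and 14.2 CPM) and the vesicular GABA transporter Slc32a1 (0.140 to 0.974 against 3.28 and 5.0 CPM) were among the lower ones, and these 3 are also in the GABAergic neuron list. The glutamate uptake transporter Slc1a2 was higher, at 67.4, 55.9 and 48.4 CPM against 19.8 and 20.8 CPM (log2 fold change 1.49, SE 0.16, edgeR adjusted p = 0.0253). Of 5 tested cation-chloride cotransporters, which set whether GABA depolarizes, Slc12a5, the neuronal chloride extruder, was lower (2.15, 2.13 and 3.12 against 5.0 and 5.55 CPM). Of the 5 tested, 2 were lower, and Slc12a7 was higher (0.52, SE 0.11). The glycine receptor subunits Glra2 (−0.57, SE 0.31, edgeR adjusted p = 0.258) and Glrb (−0.34, SE 0.13, edgeR adjusted p = 0.127) did not pass. Adarb1, the adenosine deaminase that edits Gria2, overlapped at 19.1 to 20.3 against 19.4 and 25.0 CPM and did not pass (−0.18, SE 0.14, edgeR adjusted p = 0.423), and Adar did not pass either (−0.07, SE 0.10, adjusted p = 0.646).

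Subunits of voltage-gated sodium and calcium channels were taken for comparison, as the other large ion channel families of neurons. Of 26 tested, 2 (7.69%) were called higher and 8 (30.8%) lower in medial cortex, with a median log2 fold change of −0.37. Of 41 receptor subunit genes 5 (12.2%) were called higher and 8 (19.5%) lower, with a median of −0.64. Over all genes tested these shares were 4.62% and 5.10%. A channel gene called higher, Cacna2d2, is also in the Cajal-Retzius list. The difference between these families was not tested.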

How the data were processed

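Gene expression was measured by RNA sequencing of unstranded polyA libraries, per the labels' protocols. The authors deposited 1 whole-number read count per gene symbol and library, not normalised. BWA, STAR and HTSeq and the build mm9 are listed in the submitters' processing notes. Their versions, roles and the annotation are not given in the sources used here. Reads that HTSeq gave to no gene (23.1% to 28.7% of each total) were kept out.

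Groups came from the labels. Counts were kept by filterByExpr (count of 10, total of 15), scaled by TMM and compared in R 4.3.3 by edgeR 4.0.16 (glmQLFit in its newer form and glmQLFTest, group as the only term, 3 residual degrees of freedom), with Benjamini-Hochberg adjustment over 16229 genes and a threshold of 0.05. SE values are the absolute log2 fold change over the square root of F. CPM values are scaled by TMM. The test was checked on simulated counts. Alternatives were DESeq2 1.42.0, limma-voom (limma 3.58.1), other scalings and filters, thinning, blocks and leaving out each library. Members are named, except that some genes are not reported here by name or drawn, though counts and medians include them. Of each other list, the text names up to 4 called genes, lowest adjusted p first, or up to 2 with the highest mean. Members and lists were chosen with earlier results of these data known. Exon lengths and overlaps came from GENCODE M21 (GRCm38, 47 of 47 genes matched) and neighbours and start regions from RefSeq GRCm38.p6 (47 and 32 of 47 matched). The files' build is mm9, so no position is given for the counts. Counting error alone is covered by the floor of 3 reads.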

Additional observations from a re-analysis of the deposited data

How the results depend on the processing

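With DESeq2 3527 genes were called over all genes, 8 subunit genes higher and 14 lower in medial cortex, against 1577, 5 and 8 in edgeR. With a block by the tag in the deposited file names, which uses up medial library 1 and leaves 1 residual degree of freedom, the counts were 5364, 8 and 21. With a replicate block by number, which uses up medial library 3, 1076 genes were called, 3 subunit genes higher and 9 lower, and 3 of the 13 called genes, Gria4 and Grik2 among them, lost their calls. The numbers do not pair the libraries by the labels. Across genes, deviations from the group means correlated at 0.03 and −0.38 in same-numbered pairs and at 0.38 in both same-tagged pairs. With 2 lateral libraries the deviations of 1 are the other's with the sign turned, so these values are not separate and cannot settle a pairing. Leaving out 1 library gave 0 to 2163 calls over all genes, 0 to 7 subunit genes higher and 0 to 10 lower in edgeR. In DESeq2 it gave 664 to 3108 (3041 without medial library 1), 4 to 9 and 2 to 14. The other settings kept these counts within 1.5 times, though Gabrb2 lost its call with limma-voom, Grik2 with no low-count filter and 1 other gene after thinning. None of the 13 called genes changed direction in any setting run.

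Among genes that were not called, Gabrr2 (near 0 in edgeR) was at 0.022 with upper-quartile scaling, 0.062 with library size alone, 0.045 with limma-voom and 0.030 with the block by tag, and at −0.038 to 0.057 when 1 library was left out. Grm4 was at 0.53 after thinning, 0.072 with the replicate block by number, and −1.21 to 0.14 when 1 library was left out. With the block by tag Gabre was at 0.21 and Gabrg3 at −0.11. Leaving out 1 library put Gabbr2 at −0.82 to 0.36, Gabre at −0.66 to 0.68 and Gabrg3 at −0.088 to 1.08. In DESeq2 such fits reversed Gabbr2 (0.36 without lateral library 2), Gabre (0.16 without medial library 1, 0.67 without lateral library 1), Gabrg3 (−0.096 without medial library 1) and Grm4 (0.18 and 0.094 without medial library 2 and 3). The cause of these moves was not tested. Depth limits the genes with few reads.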
